A study of Brassica carinata with 12 samples.

Results

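The unplaced genes of the Brassica carinata assembly were taken as the gene IDs that carry no B or C chromosome, all of which begin with BcaNung, and that had 10 or more counts in at least 3 of the 12 libraries. They numbered 4417 of 7400 unplaced genes, in a table of 97149 genes in all. The same count minimum left 47784 of 89749 genes with a chromosome in the ID, called placed genes here. The libraries were made from anthers of synthetic B. carinata, a hybrid that joins the B genome of B. nigra (pollen parent) with the C genome of B. oleracea var. alboglabra (seed parent). The haploid groups (genotype BC) hold the cross itself, and the tetraploid groups (genotype BBCC) the same cross after culture of ovules and colchicine, which doubles chromosomes. Each form was sampled at meiosis (sporogenesis, young anthers) and at mitosis (gametogenesis, anthers), though the extraction protocol speaks of floral buds, with 3 libraries in each of the 4 groups. The labels give no cultivar, number of plants or batch, and do not tell whether libraries within a group are separate plants, so p-values here reflect only a spread between libraries that may be technical. Total counts per library ran from 15769687 to 16793767.

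Genes are unplaced when they lie on contigs that an assembly could not anchor to a chromosome. Such contigs are often short or rich in repeats, and many hold copies that resemble sequence elsewhere in the genome, so that short reads can match several places and may be split or dropped in counting. In an allotetraploid this adds to the likeness of the homoeologous B and C copies. Anthers at meiosis hold pollen mother cells and the tapetum, the layer that feeds them, and anthers at mitosis hold developing pollen, in which transcripts for pollen wall and tube growth become abundant. The files pair no ID with a gene name, coordinate or sequence, so no role is given for any gene below, the tissue could not be checked against marker genes, and near-identical or overlapping copies could not be told apart. In whole anthers a change in a cell type's share of the tissue and a change of RNA per cell cannot be told apart.

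Counts were found for most of the unplaced genes. Of the 7400, 1202 (16.2%) had 0 counts in all 12 libraries, 1781 had counts below the minimum and 4417 (59.7%) passed it. Among placed genes 23.3% were at 0 throughout and 53.2% passed. Reads of near-identical copies can be lost in counting, and their treatment was not stated in the sources used here. Of the unplaced genes that passed, 3004 (68.0%) had at least 10 counts in every library, against 69.1% of placed genes that passed. Another 75 passed through the 3 libraries of a single group, 62 of them through the tetraploid at mitosis, 6 through the haploid at mitosis, 4 through the tetraploid at meiosis and 3 through the haploid at meiosis. These genes had to differ between groups, so the counts of changed genes below are descriptions. At the edge of the rule, 170 unplaced genes had at least 10 counts in exactly 3 libraries, with a median level of 0.418 CPM, and 149 had them in exactly 2, with a median of 0.295 CPM. CPM are counts scaled to library size with TMM factors, which even out differences in library composition.

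Median levels of unplaced genes in CPM lay slightly below those of placed genes in each group. Their median level was 4.53 CPM in haploid libraries at meiosis, 4.40 in the tetraploid at meiosis, 4.94 in the haploid at mitosis and 5.32 in the tetraploid at mitosis. Placed genes had medians of 5.38, 5.08, 5.73 and 5.85 CPM in the same order. Per length, the median of the deposited FPKM was 4.76 for unplaced and 5.17 for placed genes in the haploid at meiosis, 4.59 and 4.84 in the tetraploid at meiosis, 4.55 and 4.75 in the haploid at mitosis and 4.94 and 4.94 in the tetraploid at mitosis. Over all libraries 112 unplaced genes averaged at least 100 CPM, or 2.54%, against 2.73% of placed genes. These differences between sets of genes were not tested. The ratio of count to FPKM gives the length at which both tables would match, and its median was 1149 bases for 4194 unplaced genes (interquartile range 660.5 to 1771) and 1168 bases for placed genes (interquartile range 688 to 1795), using libraries with at least 20 counts. Unplaced genes were therefore close to placed genes in implied length, and 29 of them came out above 10 kb (0.691%, against 0.563% of placed genes).

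The share of counts from unplaced genes was higher at mitosis than at meiosis in both forms. It was 7.23%, 7.24% and 7.26% in the 3 haploid libraries at meiosis and 7.18%, 7.20% and 7.20% in the tetraploid libraries. At mitosis it was 8.57%, 8.53% and 8.55% in the haploid and 7.97%, 7.92% and 7.94% in the tetraploid. Libraries did not overlap in any of the 4 comparisons of forms or stages. The group values were 7.24% ± 0.0138 (SD, n = 3), 7.20% ± 0.0102, 8.55% ± 0.0218 and 7.94% ± 0.0246 in that order. The haploid exceeded the tetraploid by 0.0483 percentage points at meiosis and by 0.609 at mitosis, and mitosis exceeded meiosis by 1.31 points in the haploid and by 0.750 in the tetraploid. The remainder holds placed genes and the unplaced genes below the count minimum. No p-value is given for this sum over genes.

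**Figure D1:**
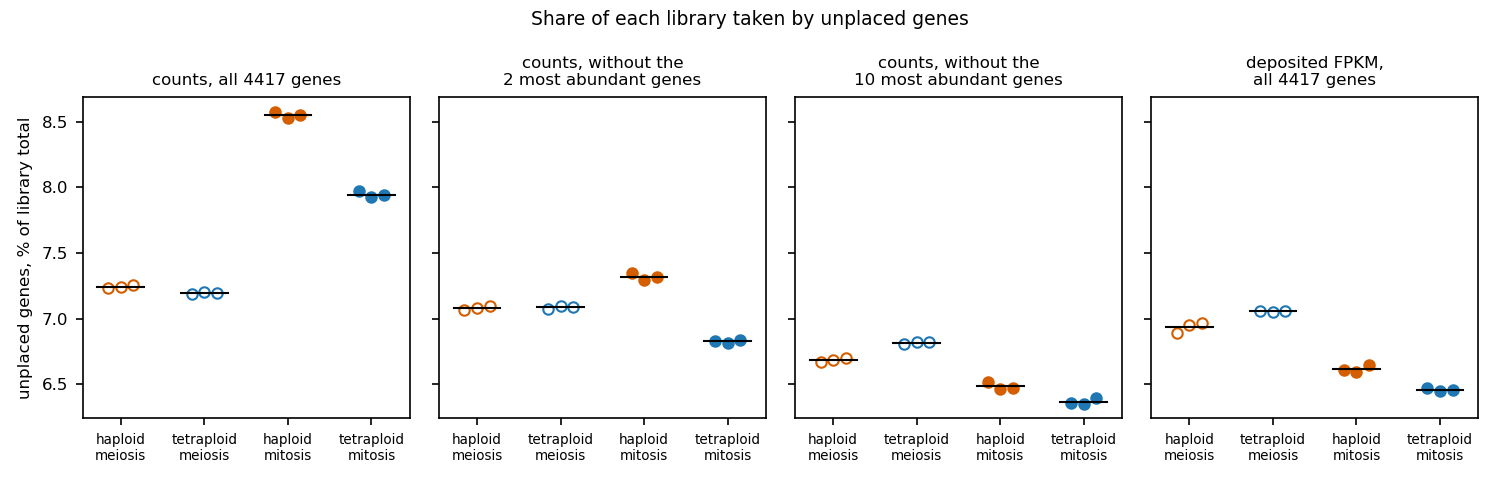
Share of each library's total taken by the 4417 unplaced genes, in percent, for counts, for counts without the 2 or the 10 most abundant unplaced genes, and for the deposited FPKM. Each point is a library, bars are means of 3, open points are meiosis and filled points mitosis, and the axis does not start at 0. With all genes the haploid at mitosis stands highest at 8.55%, while without the 10 most abundant genes both mitosis groups lie below both meiosis groups.

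The direction of that stage difference depended on a few abundant genes. In the haploid, 2015 unplaced genes took a larger share of counts at mitosis, 3.99 points together, and 2401 took a smaller share, -2.68 points together. The 10 largest gains summed to 1.99 points, more than the net rise, and the 10 largest losses to -0.668 points. In the tetraploid the 10 largest gains came to 1.48 points and the 10 largest losses to -0.510, beside a net rise of 0.750. The 10 most abundant unplaced genes of a library held 12.9% ± 0.129 (SD, n = 3) of the unplaced counts in the haploid at meiosis, 9.36% ± 0.0305 in the tetraploid at meiosis, 26.6% ± 0.181 in the haploid at mitosis and 20.7% ± 0.348 in the tetraploid at mitosis.

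Without the 10 genes of highest mean level the stage difference turned. The share was then 6.68% ± 0.0129 (SD, n = 3) at meiosis and 6.48% ± 0.0300 at mitosis in the haploid, and 6.82% ± 0.00809 and 6.37% ± 0.0213 in the tetraploid. The ploidy difference at meiosis turned too, at -0.132 points, while that at mitosis stayed above 0 at 0.115 points. With only the 2 most abundant genes left out, a choice made after the data were seen, the stage difference was 0.239 points for the haploid and -0.260 for the tetraploid, and at meiosis libraries of the 2 forms overlapped. The deposited FPKM gave a share of 6.93% ± 0.0408 and 6.61% ± 0.0288 in the haploid and 7.06% ± 0.00410 and 6.46% ± 0.0128 in the tetraploid, so the share of summed FPKM was lower at mitosis in both forms. With the 10 genes of highest FPKM left out of the total, a choice made after the data were seen, the haploid stage difference was -0.0480 points and libraries overlapped, and that of the tetraploid was -0.534 points. The haploid was the higher form at mitosis under each of these ways of summing.

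The most abundant unplaced gene was BcaNung03410, which was low at meiosis and abundant at mitosis in both forms. It stood at 1.66, 2.95 and 2.11 CPM in haploid libraries at meiosis and at 2.07, 3.18 and 1.42 CPM in tetraploid libraries. At mitosis it stood at 7886, 8072 and 7888 CPM in haploid libraries and at 6232, 6011 and 5933 CPM in tetraploid libraries. The stages were far apart and the forms overlapped at meiosis only. The rise was called in the haploid (edgeR, log2 fold change 11.79 with SE 0.08, adjusted p = 2.43e-43) and in the tetraploid (edgeR, log2 fold change 11.40 with SE 0.08, adjusted p = 3.89e-43), and the haploid was higher at mitosis (edgeR, log2 fold change 0.39 with SE 0.05, adjusted p = 9.08e-09). Its FPKM rose in the same way, from 0.893 to 2793 in the haploid and from 0.810 to 2191 in the tetraploid.

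BcaNung01878, the third by mean level, differed between the forms at both stages. It stood at 179, 178 and 169 CPM in haploid libraries and 42.9, 36.2 and 42.2 CPM in tetraploid libraries at meiosis. At mitosis the libraries gave 3045, 3004 and 3080.5 CPM in haploid libraries and 512, 506 and 515 CPM in tetraploid libraries. The haploid libraries lay above all tetraploid libraries of their stage, at meiosis (edgeR, log2 fold change 2.12 with SE 0.05, adjusted p = 6.49e-28) and at mitosis (edgeR, log2 fold change 2.57 with SE 0.04, adjusted p = 2.35e-32). Its FPKM were 97.3 and 22.3 at meiosis and 1441 and 249 at mitosis, haploid first.

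BcaNung02168, the second by mean level, was a case in which the 2 deposited tables went in opposite directions. Its counts gave 1561, 1531 and 1511 CPM in haploid libraries and 1019, 1019 and 1052 CPM in tetraploid libraries at meiosis. They gave 5365, 5408 and 5514 CPM in haploid libraries and 5834, 5754 and 5668 CPM in tetraploid libraries at mitosis, higher in every library than at meiosis. The deposited FPKM fell instead, from 13.0 ± 0.0960 to 10.3 ± 1.20 (SD, n = 3) in the haploid and from 19.1 ± 1.04 to 14.6 ± 0.546 in the tetraploid. The length implied by the ratio ran from 58382 bases in the tetraploid at meiosis to 475993 in the haploid at mitosis, where a fixed gene length would give 1 value. BcaNung02167, the preceding ID, was added after its values were seen. It rose in both tables, from 18.1 to 1480.5 CPM and from 646 to 4595 FPKM in the haploid, and from 4.67 to 1466 CPM and from 414 to 4385 FPKM in the tetraploid. Its implied length moved the same way, from 30.9 to 313 bases in the haploid. Whether these IDs overlap or share reads was not tested, since the files give no coordinates, and the level of BcaNung02168 is uncertain for that reason.

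**Figure D2:**
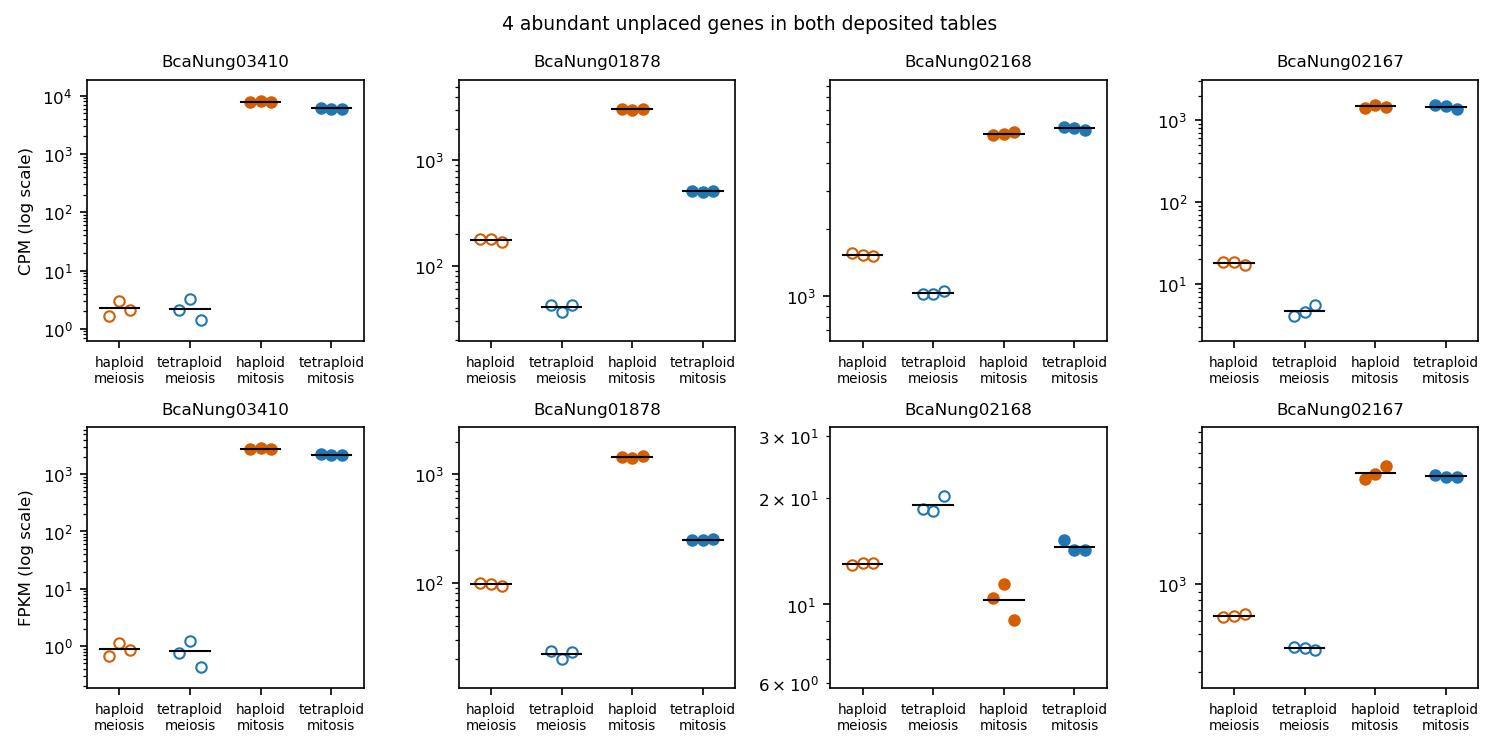
Levels of 4 abundant unplaced genes in each library as CPM from the counts (top row) and as deposited FPKM (bottom row), on log axes that differ between panels. Points are libraries, bars are means of 3, open points are meiosis and filled points mitosis. BcaNung03410 and BcaNung01878 move alike in both rows, while BcaNung02168 rises in CPM and falls in FPKM.

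BcaNung00488, also among the 10 unplaced genes of highest mean level, likewise moved in opposite directions in the 2 tables. It rose from 52.2 to 1175 CPM in the haploid and from 49.3 to 695 CPM in the tetraploid. Its FPKM fell from 3.31 to 2.57 and from 2.04 to 1.52. Its implied length ran from 16788 to 428335 bases, and BcaNung00936 of the same 10 came out at 49596 bases. Such disagreement was nevertheless rare among unplaced genes as a whole. For the 2599 with at least 20 counts and an FPKM above 0 in every library, the stage change in counts and in FPKM correlated across genes with Pearson's r of 0.970 for the haploid and 0.974 for the tetraploid, as a description, since both values come from the same libraries. For 28857 placed genes r was 0.986 in each form. The tables differed by more than 2-fold from their median offset for 18 unplaced genes in the haploid (0.693%, against 0.378% of placed genes) and for 27 in the tetraploid (1.04%, against 0.534%). In each form 2 unplaced genes moved more than 1.5-fold in opposite directions.

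The next comparison asked which unplaced genes changed from meiosis to mitosis in the haploid. Calls needed an adjusted p below 0.05 in edgeR's quasi-likelihood test after Benjamini-Hochberg adjustment over all 51860 genes tested, of which 4386 were unplaced (31 unplaced genes past the count minimum fell to the test's own filter). Called were 2779 of the 4386, or 63.4%, against 63.8% of all genes tested. At mitosis 1533 were higher (35.0%, all genes 33.3%) and 1246 lower (28.4%, all genes 30.4%). The median log2 fold change was 0.10 for unplaced genes (interquartile range -0.58 to 0.85) and 0.04 for placed genes. Changes of at least 2-fold were called for 36.4% of unplaced genes, beside 35.1% of all genes. They were 911 rises (20.8%, all genes 19.7%) and 687 falls (15.7%, all genes 15.4%). With the deposited FPKM (limma-trend, pseudocount 1) the median of all genes moved from 0.04 to -0.14 and that of unplaced genes to -0.10. Then 1211 unplaced genes were called higher and 1666 lower, 42.1% of calls higher against 55.2% with counts. Over all genes 39.5% of calls were higher with the FPKM, against 52.3% with counts.

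Among called genes whose higher group reached 10 CPM on average and whose libraries did not overlap, a limit kept for the genes ranked in the paragraphs on each comparison, BcaNung02216 and BcaNung02217, which have consecutive IDs, had the largest fitted rises in the haploid. BcaNung02216 had 0 counts in the 3 haploid libraries at meiosis and stood at 268, 281 and 291 CPM at mitosis. That is at least 1622-fold higher when set against a floor of 3 counts per library. BcaNung02217 also had 0 counts at meiosis and stood at 104, 104 and 113 CPM at mitosis, at least 619-fold higher. Both genes met the count minimum only through libraries at mitosis, so no p-value is given for them. In the tetraploid at mitosis they were at 311 ± 3.37 and 114 ± 4.91 CPM (SD, n = 3) in the same order. BcaNung02825 fell from 205, 207 and 201 CPM to 0.721, 0.271 and 0.261 CPM in haploid libraries (fitted log2 fold change -8.90). BcaNung01688 fell from 48.6, 48.9 and 46.0 CPM to 0.262, 0.0679 and 0 CPM (fitted log2 fold change -8.66). Neither would have passed the count minimum without libraries at meiosis, so no p-value is given for these falls either. Haploid mitosis replicate 1 holds most of the few counts left, and without it the log2 fold changes were -9.55 and -10.19.

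In the tetraploid 3120 unplaced genes were called between the stages, 71.1% against 72.0% of all genes tested. At mitosis 1710 were higher (39.0%, all genes 37.3%) and 1410 lower (32.1%, all genes 34.7%). The median log2 fold change was 0.10 (interquartile range -0.74 to 1.07), beside 0.03 for placed genes, and it was -0.07 with the FPKM, where the median of all genes was -0.11. The larger side turned too with the FPKM, at 1494 higher and 1717 lower. That put 46.5% of calls on the higher side, where all genes gave 44.0%. At least 2-fold changes were called for 44.0%, beside 43.4% of all genes. They were 1121 rises (25.6%, all genes 24.3%) and 811 falls (18.5%, all genes 19.1%).

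Under the same limit BcaNung04957 and BcaNung00445 had the largest fitted rises in the tetraploid, each from 0 counts in all 3 libraries at meiosis. BcaNung04957 reached 335, 385 and 403 CPM at mitosis, at least 2188-fold higher. It was lower in the haploid at mitosis, at 66.9, 68.9 and 68.0 CPM, with no overlap. BcaNung00445 reached 108, 145 and 125 CPM in tetraploid libraries, at least 736-fold higher, and 39.6, 47.4 and 55.4 CPM in haploid libraries. BcaNung01688 fell from 54.5, 58.2 and 54.7 CPM to 0 counts, or at least 285-fold, and BcaNung01259 from 48.6, 45.6 and 46.9 CPM to 0 counts, or at least 240.0-fold. The genes with rises met the count minimum only through libraries at mitosis, and those with falls only through libraries at meiosis. No p-value is given for them for that reason. BcaNung01688 is also among the steepest falls of the haploid.

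Stage calls were largely shared by the 2 forms. Higher at mitosis in both were 1253 genes, 81.7% of those called higher in the haploid and 73.3% of those called higher in the tetraploid. Lower in both were 1014, or 81.4% and 71.9% of the 2 lists. Placed genes gave 81.7% and 73.1% for the higher lists and 82.2% and 72.0% for the lower ones. Opposite calls were made for 87 unplaced genes (1.98% of those tested, against 2.31% of placed genes). The 2 stage comparisons share no library but come from 1 model with 1 estimate of the spread.

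**Figure D3:**
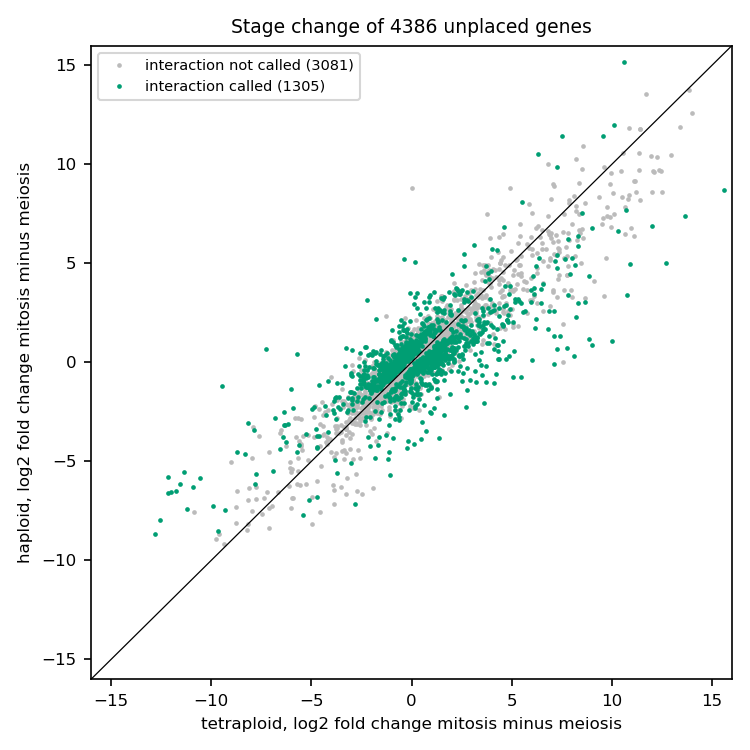
Fitted log2 fold change from meiosis to mitosis of the 4386 tested unplaced genes in the tetraploid (horizontal axis) and the haploid (vertical axis). Each point is a gene, the line marks equal change, and green points are the 1305 genes whose ploidy difference differed between stages. Sizes far from 0 include genes at 0 counts in 1 group, whose fitted value depends on the prior count.

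The comparison of the forms at meiosis asked which unplaced genes went with ploidy. Of those tested, 1603 were called (36.5%, all genes 38.3%). Calls were nearly balanced, with 796 on the side of the haploid (18.1%) and 807 on that of the tetraploid (18.4%). All genes tested gave 19.5% and 18.8%, and placed genes outside chromosome C03, whose genes stand higher in the haploid as a group, gave 17.1% and 19.8%. The median log2 fold change of unplaced genes was 0.00 (interquartile range -0.37 to 0.37), where 53 genes with 0 counts in all 6 libraries at meiosis have a fitted value of 0. It was -0.01 for placed genes outside C03 and 0.83 for C03. The larger side of the split turned when TMM factors were computed without C03 genes, to 851 higher and 735 lower. With no filter on low counts it turned to 796 and 777. Higher calls were then 53.7% and 50.6% of calls, where all genes gave 54.4% and 51.5%. Differences of at least 2-fold were called for 9.67%, beside 9.46% of all genes. Of the unplaced genes 209 were higher in the haploid (4.77%, all genes 5.38%) and 215 lower (4.90%, all genes 4.08%). Placed genes outside C03 gave 3.80% and 4.17%.

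Among genes reaching 10 CPM without overlap, BcaNung00432 had the largest fitted excess in the haploid at meiosis. It stood at 41.8, 45.0 and 40.4 CPM in haploid libraries, while the tetraploid libraries held 2 counts in all, a ratio of 1117 with an exact 95% counting interval of 309 to 9227 (edgeR, adjusted p = 1.54e-31). Such intervals and the floors take in counting error alone, because PCR copies of a molecule cannot be told from separate molecules here. At mitosis it was abundant in both forms, at 1374, 1367 and 1323 CPM in haploid libraries and 311, 304 and 312 CPM in tetraploid libraries. BcaNung03350 had the same order of groups, with 16.7, 19.0 and 21.4 CPM in haploid libraries and 0.616, 0.112 and 0.178 CPM in tetraploid libraries at meiosis (edgeR, log2 fold change 5.93 with SE 0.20, adjusted p = 9.95e-23) and 250.2 ± 2.76 and 27.1 ± 1.32 CPM (SD, n = 3) at mitosis. Without tetraploid meiosis replicate 1, which holds most of its counts there, the log2 fold change was 6.97.

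Under the same limit BcaNung01602 and BcaNung00266 had the steepest decreases at meiosis. BcaNung01602 stood at 2.24, 2.096 and 1.64 CPM in haploid libraries and 13.2, 12.5 and 14.3 CPM in tetraploid libraries (edgeR, log2 fold change -2.74 with SE 0.25, adjusted p = 5.60e-11). BcaNung00266 stood at 10.1, 8.78 and 9.38 CPM and 51.1, 46.4 and 57.2 CPM (edgeR, log2 fold change -2.45 with SE 0.11, adjusted p = 1.45e-18). Both fell in the tetraploid by mitosis, to 3.68 ± 2.08 and 13.6 ± 2.25 CPM (SD, n = 3), and the haploid was then at 1.66 ± 0.530 and 7.57 ± 1.35 CPM. For BcaNung01602 the libraries of the forms overlapped at mitosis.

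At mitosis decreases in the haploid were more frequent than increases, among unplaced genes as over all genes tested. Of those tested 1962 were called (44.7%, all genes 47.7%), 911 of them higher in the haploid (20.8%) and 1051 lower (24.0%). All genes tested gave 23.3% and 24.4%, and placed genes outside C03 gave 21.1% and 25.5%. The median log2 fold change was -0.0077 (interquartile range -0.46 to 0.40), 0.02 for placed genes and 0.90 for C03. Its sign turned when TMM factors were computed without C03 genes, at 0.02. Calls were then nearly even, 964 higher and 993 lower. That put 49.3% of calls on the higher side, where all genes gave 51.4%. Differences of at least 2-fold were called for 18.0%, beside 19.7% of all genes. Of the unplaced genes tested 286 were higher (6.52%, all genes 7.70%) and 502 lower (11.45%, all genes 11.99%).

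Among genes reaching 10 CPM without overlap, the 2 with the largest excess in the haploid at mitosis were far more abundant at meiosis. BcaNung06509 stood at 17.8, 14.7 and 18.0 CPM in haploid libraries at mitosis and at 0.259, 0.266 and 0 CPM in tetraploid libraries (edgeR, log2 fold change 6.53 with SE 0.20, adjusted p = 2.59e-24). At meiosis it had been at 1209 ± 14.2 CPM in haploid libraries and 544 ± 8.25 CPM in tetraploid libraries (SD, n = 3). BcaNung02358 stood at 10.9, 11.5 and 11.7 CPM and 0.194, 0.0664 and 0.389 CPM at mitosis (edgeR, log2 fold change 5.66 with SE 0.18, adjusted p = 2.06e-23), and at 896 ± 7.25 and 429.7 ± 6.69 CPM at meiosis. Both fell steeply between stages in both forms, and the tetraploid values at mitosis rest on 8 and 10 counts. Without tetraploid mitosis replicate 3 the log2 fold change of BcaNung02358 was 6.36.

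Under the same limit the 2 largest decreases were in genes found almost only in the tetraploid at mitosis. BcaNung03991 met the count minimum only through the 3 tetraploid libraries at mitosis, so it had to differ and no p-value is given. BcaNung00860 also had 10 counts in haploid mitosis replicate 2. It would not have passed without tetraploid libraries at mitosis, so no p-value is given for it either. BcaNung03991 stood at 24.9, 22.8 and 23.2 CPM there and at 0.328, 0 and 0 CPM in haploid libraries (fitted log2 fold change -7.65). Its 5 haploid counts all came from replicate 1, without which the log2 fold change was -11.60. BcaNung00860 stood at 20.4, 21.8 and 22.0 CPM in tetraploid libraries and at 0.393, 0.679 and 0.196 CPM in haploid libraries (fitted log2 fold change -5.65). At meiosis BcaNung03991 had at most 0.170 CPM and BcaNung00860 at most 0.118 CPM in any library.

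**Figure D4:**
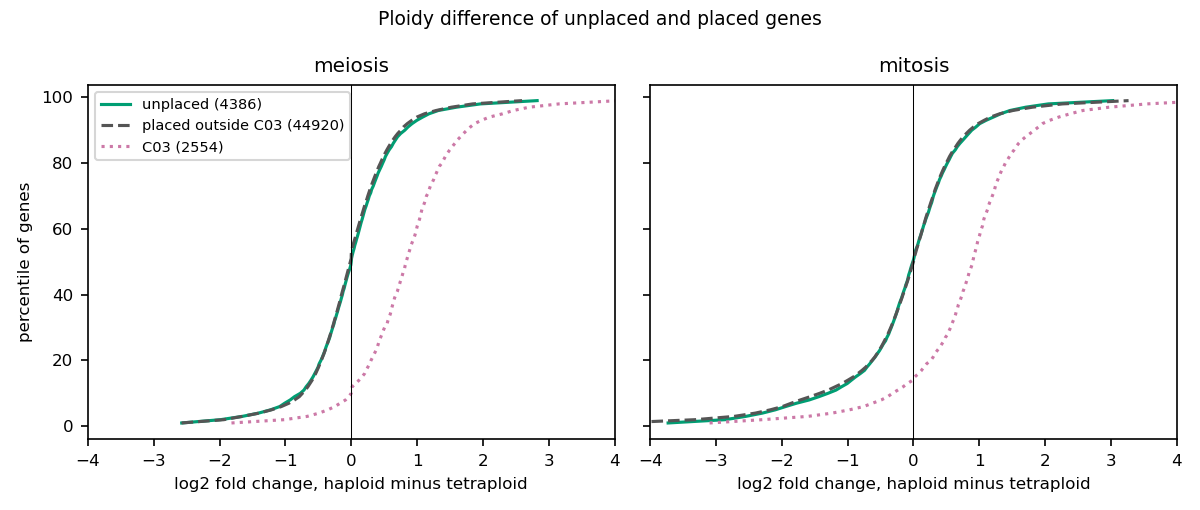
Percentiles (1 to 99) of the log2 fold change, haploid minus tetraploid, at meiosis (left) and mitosis (right), for tested unplaced genes, placed genes outside C03 and C03 genes. Lines are sets of genes. The unplaced line runs along that of placed genes outside C03, with interquartile ranges of -0.37 to 0.37 and -0.36 to 0.34 at meiosis, and C03 lies to the right.

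Ploidy calls at meiosis and at mitosis, made on separate libraries in 1 model, overlapped in part. A total of 373 unplaced genes were higher in the haploid at both stages, 46.9% of those higher at meiosis and 40.9% of those higher at mitosis. They made up 8.50% of unplaced genes tested, against 9.69% of all genes tested. Placed genes outside C03 gave 7.39% and C03 genes 52.2%. Lower at both stages were 338, 41.9% of those lower at meiosis and 32.2% of those lower at mitosis. They made up 7.71% of unplaced genes, against 7.99% of all genes tested, 8.42% of placed genes outside C03 and 0.861% of C03 genes. Another 254 were called in opposite directions (5.79%, against 5.58% of placed genes outside C03 and 5.41% of all genes), 137 of them higher at meiosis and lower at mitosis. The differences between these sets of genes were not tested.

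Whether the ploidy difference itself changed between the stages was tested as an interaction in the same model. It was called for 1305 unplaced genes (29.8%, against 30.5% of all genes tested). For 643 (14.7%) the haploid minus tetraploid difference was more positive at mitosis and for 662 (15.1%) more negative, where all genes gave 15.6% and 14.9%. The negative side was larger by more in other fits, with 641 and 905 from the FPKM (limma-trend, pseudocount 1) and 511 and 638 from DESeq2. The positive side then held 41.5% and 44.5% of calls, and all genes shifted too, to 42.2% and 46.5%. The change was at least 2-fold for 13.4%, beside 13.3% of all genes.

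Among genes reaching 10 CPM, BcaNung01685 and BcaNung02584 had the most positive interactions. BcaNung01685 stood at 29.9 ± 1.72 CPM in haploid libraries and 34.6 ± 0.944 CPM in tetraploid libraries at meiosis (SD, n = 3). At mitosis it held 0.459, 0.747 and 0.391 CPM in haploid libraries and 0 counts in the tetraploid libraries (edgeR, adjusted p = 4.54e-06). BcaNung02584 stood at 15.7 ± 2.45 and 19.9 ± 1.93 CPM at meiosis, and at 0.197, 0.407 and 0.391 CPM in haploid libraries and 0 counts in the tetraploid at mitosis (edgeR, adjusted p = 2.39e-04). Both were thus near absent in both forms at mitosis, and the size of a fit against 0 counts depends on the prior count. Their fitted log2 values ran from 0.54 to 6.51 and from 0.73 to 6.08 over the 20 alternative fits. The most negative were BcaNung00432 (edgeR, log2 fold change -7.73 with SE 0.23, adjusted p = 8.82e-24) and BcaNung03991, whose levels are given above. BcaNung03991 met the count minimum only through the tetraploid at mitosis, so no p-value is given, and its fitted value of -8.16 became -5.07 without haploid meiosis replicate 2, where its edgeR call was lost, and -12.11 without haploid mitosis replicate 1.

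Read at like expression levels, unplaced and placed genes were called about as often. Of genes at 4 to 16 CPM on average, 40.2% of unplaced and 40.1% of placed genes were called between the forms at meiosis, and 46.6% and 48.4% at mitosis. Between the stages the shares were 65.7% and 64.9% in the haploid and 74.4% and 73.5% in the tetraploid. At the lowest levels, under 1 CPM, 25.5% of unplaced and 30.8% of placed genes were called between the forms at mitosis. Above 64 CPM, with 199 unplaced genes, the order was the other way, 88.4% and 83.0%. In both sets the share called rose with level in each comparison. No test was run on these differences between sets.

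**Figure D5:**
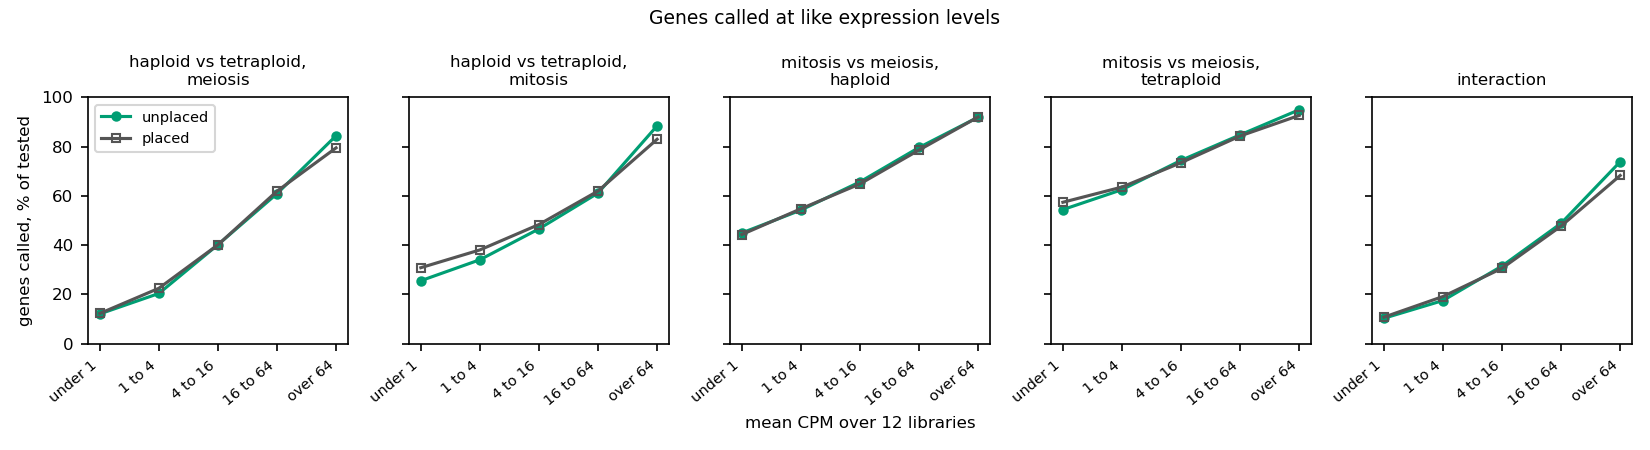
Percent of tested genes called in each of the 5 comparisons, by mean CPM over the 12 libraries, for unplaced genes (filled circles) and placed genes (open squares). The 2 lines run close together, and part most above 64 CPM for the forms and the interaction (73.9% of unplaced and 68.3% of placed genes) and under 1 CPM for the forms at mitosis.

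Few unplaced genes were missing from a whole form. BcaNung05351 was the 1 gene that had 0 counts in all 6 haploid libraries, and it had 22, 19 and 26 counts in the tetraploid libraries at mitosis. Its deposited FPKM averaged 0.0291 in haploid and 1.52 in tetraploid libraries at mitosis. BcaNung04709 was the 1 gene that had 0 counts in all 6 tetraploid libraries, and it had 45, 58 and 51 counts in the haploid libraries at mitosis. BcaNung03766 had 2 counts in the tetraploid libraries together and 86, 74 and 85 counts in the haploid libraries at meiosis. In the deposited FPKM it averaged 13.5 in haploid and 1.23 in tetraploid libraries at meiosis. Each of these 3 genes met the count minimum through a single group and so had to differ, and they were picked after their values were seen, so no test is given. A stage was missing more often, with 53 unplaced genes at 0 counts in all 6 libraries at meiosis and 8 at mitosis, 1.20% and 0.181%, against 1.80% and 0.339% of placed genes.

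Unplaced IDs are numbered in a row, and IDs that follow each other were slightly more alike than distant ones. The median correlation of log2 expression over the 12 libraries was 0.11 for 2987 pairs of unplaced genes with consecutive IDs and -0.00760 for 2671 pairs 10 IDs apart. Consecutive placed genes gave 0.12 and those 10 apart 0.02. These are descriptions, since all pairs share the same libraries and groups, and whether consecutive unplaced IDs lie on the same contig is not given in the files.

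Some unplaced genes with the same ploidy call at both stages followed each other in ID order. Runs were counted for unplaced genes only, so their lengths have no comparison with placed genes. Of the 373 unplaced genes higher in the haploid at both stages, 269 had no such neighbour among tested genes and 66 came in pairs. The longest run had 6 genes, from BcaNung01143 to BcaNung01149. Their log2 fold changes were 0.65 to 2.41 at meiosis and 0.51 to 1.25 at mitosis. A run holds only genes called higher at both stages, so their calls and signs were fixed by the choice. A run of 5, from BcaNung01875 to BcaNung01881, holds BcaNung01878 and had values of 0.55 to 2.12 and 0.82 to 2.57. Runs of genes lower at both stages had at most 3 genes. These runs were noticed in the data and were not tested as runs.

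In windows of 25 consecutive tested unplaced genes the median ploidy difference ran from -0.42 to 0.65 at meiosis and from -0.61 to 0.77 at mitosis. On placed chromosomes outside C03 such windows ran from -0.68 to 0.61 and from -0.85 to 0.64, and on C03 from 0.26 to 1.33 and from 0.32 to 1.31. The highest unplaced window at meiosis, BcaNung01130 to BcaNung01163, includes the run of 6 and was also above 0 at mitosis, at 0.52. In this window of 25, 13 genes were called higher in the haploid at meiosis and 1 lower, and 14 and 2 at mitosis. The series as a whole gave 19.5% higher and 18.8% lower at meiosis, and 23.3% and 24.4% at mitosis. The highest unplaced window at mitosis, BcaNung02473 to BcaNung02515, was at -0.04 at meiosis. The window with the steepest rise in the tetraploid, BcaNung00860 to BcaNung00902, had a median stage change of 1.78 there and 0.55 in the haploid. Of its 25 genes, 13 were called lower in the haploid at mitosis, beside 24.4% in the series as a whole. Windows overlap and were chosen for their extremes, so these values carry no test.

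Counts and FPKM differed most for unplaced genes at 0 counts. In each library between 5.72% and 6.41% of the 7400 unplaced genes had 0 counts but an FPKM above 0, against 2.90% to 3.19% of placed genes, and every library had the higher share among unplaced genes. The opposite case, a count above 0 with an FPKM of 0, was found for 0.270% to 0.486% of unplaced and 0.471% to 0.706% of placed genes. Of the 1202 unplaced genes at 0 counts in all 12 libraries, 310 (25.8%) had an FPKM above 0 in at least 1 library and 41 in all 12, and 40 averaged at least 1 FPKM. Of placed genes at 0 counts throughout, 11.1% had an FPKM above 0 in some library. The tools behind the 2 tables, and their treatment of reads with several matches, were not compared here, so a count of 0 for an unplaced gene is a statement about the count table.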

How the data were processed

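RNA-seq counts and FPKM of anthers were used for 12 libraries in 4 groups of 3, assigned by their titles. The deposited counts are whole numbers of reads for each gene, with no normalisation visible in the values. The deposited FPKM, scaled by the authors to gene length and library size, cover the same 97149 genes. The submitters' processing notes list Bowtie2 2.2.3, featureCounts 2.0.1, HISAT2 2.1.0 and TopHat2 without roles. Build, annotation, strand setting and the FPKM tool were not given in the sources used here. Tables were joined by gene ID, after an extra ending was removed from 1 ID of a placed gene.

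Counts were fitted in R 4.3.3 with edgeR 4.0.16 (TMM factors, filterByExpr, 1 mean per group over all 12 libraries, two-sided quasi-likelihood test), with p-values adjusted by Benjamini-Hochberg over 51860 genes. The SE of a log2 fold change is its size over the root of the F statistic. The common biological coefficient of variation was 0.0839. Alternatives were median-of-ratios factors, TMM without C03, no filter, the rule of 10 counts in 3 libraries as filter, DESeq2 1.42.0, log2(FPKM + 1) and log2(FPKM + 0.1) in limma 3.58.1, a replicate block and leaving out each library. Named genes were, per comparison, the 2 largest fitted changes in each direction among called genes whose higher group reached a mean of 10 CPM and whose libraries did not overlap (overlap was not asked of the interaction), plus the 3 of highest mean CPM; others are said to be chosen after their values were seen. Members and summaries were chosen with earlier results of these data known. Total counts of 15769687 to 16793767 per library set the precision, and a fold against 0 counts uses a floor of 3 counts per library.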

Additional observations from a re-analysis of the deposited data

Results flagged for a closer look

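The ploidy difference changed between the stages, by the interaction test in edgeR, for 1305 unplaced genes. Among the named genes this held for 15. The values that follow are the log2 ploidy difference at mitosis minus that at meiosis. It was more positive at mitosis for BcaNung01602 (1.59), BcaNung00266 (1.60), BcaNung06509 (5.38), BcaNung02358 (4.60), BcaNung02216 (4.54), BcaNung01688 (4.17), BcaNung01259 (4.61), BcaNung01685 (6.34), BcaNung02584 (5.81) and BcaNung01878 (0.46). It was more negative for BcaNung00432 (-7.73), BcaNung03350 (-2.73), BcaNung03991 (-8.16), BcaNung04957 (-6.86) and BcaNung02168 (-0.66). BcaNung01688, BcaNung01259, BcaNung01685 and BcaNung02584 had 0 counts in the tetraploid at mitosis, BcaNung04957 had 0 in the tetraploid at meiosis and BcaNung02216 had 0 in the haploid at meiosis, so the sizes fitted for these 6 depend on the prior count and are no bounds. BcaNung03991 met the count minimum only through the tetraploid at mitosis, and its value is a description. For BcaNung02168 the counts and the FPKM moved in opposite directions between stages, and its value is that of the counts.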

How the results depend on the processing

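Apart from the 2-fold minimum, each count of unplaced genes called stayed within 1.5 times its reported value under each scaling, filter, test and FPKM alternative. With a 2-fold minimum the counts higher and lower were 209 and 215 for the forms at meiosis, 286 and 502 at mitosis, 911 and 687 between stages for the haploid, 1121 and 811 for the tetraploid, and 246 and 342 for the interaction, since fewer genes can pass. Leaving out each library gave, in the same order, 688 to 804 and 679 to 805, 790 to 925 and 934 to 1045, 1413 to 1538 and 1178 to 1248, 1624 to 1712 and 1338 to 1424, and 574 to 604 and 602 to 646. Median log2 fold changes lay near 0 and moved by more than the spread between libraries in several fits. TMM without C03 gave 0.0190 (forms, meiosis) and 0.0169 (forms, mitosis). Median-of-ratios factors gave -0.0470 (forms, mitosis), 0.122 (stages, tetraploid) and -0.0280 (interaction). FPKM with pseudocounts 1 and 0.1 gave -0.0304 and -0.0455 (forms, mitosis), -0.102 and -0.136 (stages, haploid), -0.0668 and -0.0961 (stages, tetraploid), and -0.0221 and -0.0425 (interaction). The cause was not tested. Leaving out each library moved the medians to -0.00654 to 0, -0.0260 to 0, 0.0670 to 0.1004, 0.0866 to 0.107 and -0.0177 to 0.0197. The share of counts, for the haploid and tetraploid at meiosis and then at mitosis, was 7.26%, 7.21%, 8.57% and 7.97% with no count minimum, 6.68%, 6.82%, 6.48% and 6.37% without the 10 and 7.08%, 7.09%, 7.32% and 6.83% without the 2 most abundant genes, 6.93%, 7.06%, 6.61% and 6.46% of summed FPKM, 7.72%, 7.58%, 7.67% and 7.04% of FPKM with the 10 genes of highest FPKM left out of the total, and 7.58%, 7.38%, 9.06% and 8.18% with C03 left out of the total. The alternatives on the 2 most abundant genes and on the 10 genes of highest FPKM were chosen after seeing the data. Leaving out each library gave shares of 7.24% to 7.25%, 7.19% to 7.20%, 8.54% to 8.56% and 7.93% to 7.96%. At this depth 44.9% of unplaced genes under 1 CPM and 92.0% of those above 64 CPM were called between stages of the haploid, so a missing call at low levels says little.

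Replicate numbers in the titles showed no sign of pairing the libraries. Deviations from group means of libraries with the same number correlated at -0.019 to 0.015 over 18 pairs. Libraries with other numbers gave -0.023 to 0.035 over 36 pairs, and 1 of 12 libraries correlated best with its own number. These values cannot tell whether libraries shared a plant, day or batch. With the replicate block, calls higher and lower were 776 and 781, 891 and 1021, 1521 and 1227, 1692 and 1392 and 632 and 642 in the order above.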
